A study of Mus musculus with 24 samples.

Results

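Cadherins are the calcium-dependent adhesion molecules through which cells of the brain recognise and hold each other, and their transcripts were followed here in astrocytes from 3 sources. The genes described are all protein-coding mouse genes whose symbol is Cdh or Pcdh followed by a number alone, 23 cadherins and 11 nonclustered protocadherins, 34 of the 49671 genes counted. Desmosomal cadherins, Fat, Dachsous and Celsr cadherins and the clustered protocadherins carry other symbols and are not among them. Of the 34 genes, 31 had enough counts to be tested and 3 (Cdh9, Cdh12 and Cdh16) did not.

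Bulk RNA-seq of polyadenylated RNA was available for 6 groups of 4 biological replicates each, 24 libraries in all, and no group carries a genetic modification that the labels name. Primary astrocytes were taken from C57BL/6J wild-type mice by magnetic sorting for ACSA-2, an astrocyte surface antigen, with 2 mice pooled per isolation. Neonatal cells (neoAC) came from pups of 4 to 8 days and adult cells (AdAC) from mice of 100 to 140 days, and both were either frozen directly after isolation (direct) or kept for 7 to 10 days in an astrocyte medium (CellC). AGES are astrocytes generated from embryonic stem cells: neural stem cells (NSCs) made from 1 mouse embryonic stem cell line and grown with 20 ng/ml EGF and 20 ng/ml FGF were exposed for 3 to 5 days to 20 ng/ml BMP4. The NSCs were at passage 50 to 60, so all NSC and AGES libraries share 1 line and their replicates are separate cultures of it. By the study's methods the line came from C57BL/6N mice, so stem cell-derived and primary cells also differ in substrain. The methods also give a different base medium for NSCs and AGES than for the primary cultures. They name EGF and FGF for NSCs and only BMP4 for AGES. NSCs grew on gelatin, AGES on poly-ornithine and laminin, and primary cultures on poly-lysine and laminin. BMP4, the absence of EGF and FGF, and the coating thus cannot be told apart between NSCs and AGES. Stem cell origin, substrain, medium and coating therefore cannot be told apart in these groups. Dissociation also differed with age, since the kits were different and only the adult cells passed through debris and red blood cell removal. Removal of the meninges is stated for neonatal brains only. Age and isolation procedure therefore cannot be told apart in these groups. The olfactory bulb and cerebellum are stated as removed for the direct isolation of adult cells, so the adult culture comparison may also differ in the brain regions taken.

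Classical cadherins bind the same or a related cadherin on the neighbouring cell through their extracellular repeats and are tied to the actin cytoskeleton by beta-, p120- and alpha-catenin. They divide into type I, such as E- and N-cadherin, which make strong junctions, and type II, whose members are spread over the brain in combinations that differ between regions and cell types. Nonclustered protocadherins (delta protocadherins) have more extracellular repeats, adhere more weakly and do not bind beta-catenin, and they are known for sorting axons and synapses. N-cadherin (Cdh2) is the cadherin best known from astrocytes and neural stem cells, while VE-cadherin (Cdh5) marks endothelium and E-cadherin (Cdh1) marks epithelium.

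Library totals lay between 27904126 and 37997368 counts. Levels are given as CPM (counts scaled by TMM library size) with the SD of 4 libraries, and 3 counts in a library, taken as the detection floor, correspond to 0.0846 to 0.0997 CPM. The sorted label was checked on 8 astrocyte markers, of which none was at the floor in any group. Their summed level was 51718 to 56803 CPM in AGES, 19081 to 22473 in neoAC direct, 13701 to 14327 in AdAC direct, 7021 to 8229 in neoAC CellC, 1643 to 2021 in NSCs and 867 to 1322 in AdAC CellC. Cultured adult cells thus gave the lowest sum of the 6 groups, below the NSCs. The sum does not give the order of each marker: against neoAC CellC, AGES had 2 of the 8 higher (Gfap and S100b) and 4 lower (Aldh1l1, Aqp4, Gja1 and Atp1b2), with a median log2 fold change of -0.22. The sum of 8 oligodendrocyte markers exceeded the astrocyte sum in both adult groups, at 28000.3 to 31735 CPM in AdAC direct and 4368 to 11070 in AdAC CellC. In AdAC CellC the sum of 6 fibroblast and meningeal markers, 1068 to 1552 CPM, also reached the range of the astrocyte sum. In bulk RNA fewer cells of a type and less RNA per cell cannot be told apart. A pair of libraries stood apart in marker sums: replicate 3 of AdAC CellC had 188 CPM of epithelial markers against 80.2 to 92 in the other 3, and replicate 2 of neoAC direct had 394 CPM of endothelial markers against 96.4 to 152 in the other 3. Without the first of these, 15 members were higher and 12 lower in adult culture, as with it, and without the second 7 were higher and 19 lower in neonatal culture, also as with it.

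Fewer members were above the floor in cells with a stem cell origin, and fewer of all genes had a count there. At least 1 count was found for 20777 to 21742 genes in NSC libraries and 20951 to 21697 in AGES libraries. In primary libraries the range was 22859 to 24731 genes. In NSCs 12 of the 34 genes stayed at or below 3 counts in each library, and in AGES also 12, whereas AdAC CellC and neoAC CellC each had 1 gene at the floor (Cdh16) and both directly isolated groups had 2 (Cdh9 and Cdh16). The genes at the floor in both NSCs and AGES were Cdh1, Cdh3, Cdh7, Cdh8, Cdh9, Cdh12, Cdh15, Cdh16, Cdh18, Pcdh15 and Pcdh20. Cdh17 was at the floor in NSCs alone and Cdh5 in AGES alone. A mean of at least 10 CPM was reached by 11 genes in NSCs, 10 in AGES, 16 in neoAC CellC, 19 in neoAC direct, 19 in AdAC CellC and 13 in AdAC direct. The share of all genes at the floor or at 10 CPM was not counted, so a difference particular to the members is not shown.

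**Figure D1:**
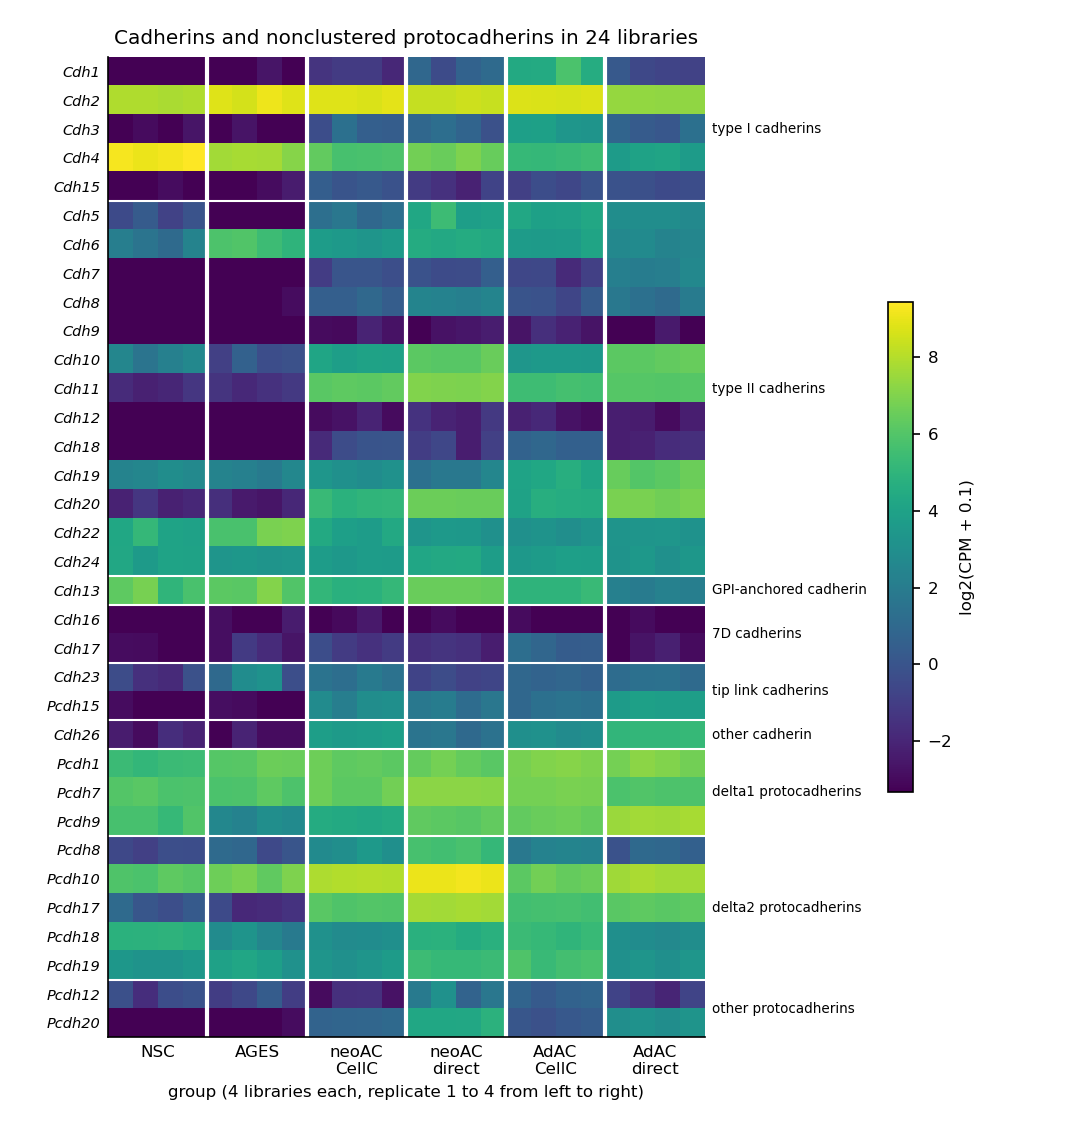
Level of the 34 genes (rows, grouped by class) in the 24 libraries (columns, 4 per group) as log2(CPM + 0.1), from dark for low to bright for high. The 12 genes at the floor in NSCs and the 12 in AGES form the dark cells on the left, and the 4 libraries of a group resemble each other.

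Levels of different genes were compared per kilobase of exon. The 18 classical cadherins together gave 125 ± 7.87 CPM per kb in NSCs, 116 ± 14.1 in AGES, 117 ± 3.26 in neoAC direct, 95.4 ± 5.84 in neoAC CellC, 93.2 ± 3.97 in AdAC direct and 96.2 ± 3.79 in AdAC CellC (SD, n = 4 in each group). These means lay between 93.2 and 125 CPM per kb, while the makeup of the sum differed widely. The 5 type I cadherins held 89.6% ± 1.85 of it in NSCs, 71.7% ± 5.54 in AGES, 67.6% ± 0.986 in neoAC CellC, 70.2% ± 1.27 in AdAC CellC, 46.9% ± 2.98 in neoAC direct and 24.5% ± 1.37 in AdAC direct. In AGES and both cultured groups N-cadherin alone supplied 48.7% ± 1.95, 58% ± 2.2 and 54.5% ± 3.27 (AGES, neoAC CellC and AdAC CellC). In NSCs the leading gene was R-cadherin, Cdh4, with 66.3% ± 3.04, ahead of Cdh2 with 23.2% ± 1.19. In AdAC direct the leading gene was the type II cadherin Cdh20 with 29.97% ± 1.43, followed by Cdh2 with 21.6% ± 1.15 and Cdh19 with 19.8% ± 2.71. This order turned with the gene length used: by the longest transcript in place of all exons, Cdh2 led with 26.4% ± 1.39 and Cdh20 had 22% ± 1.15. The second gene of AGES was Cdh4 with 23% ± 5.23, close to the type II cadherin Cdh22 with 19.9% ± 7.38, and these shares overlap within their SDs.

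The 10 nonclustered protocadherins, Pcdh15 aside, summed to 28.5 ± 1.23 CPM per kb in NSCs, 25.4 ± 1.59 in AGES, 45.7 ± 2.03 in neoAC CellC, 60.6 ± 1.89 in AdAC CellC, 71.5 ± 4.56 in AdAC direct and 109 ± 2.66 in neoAC direct. Their sum in neoAC direct was more than that of neoAC CellC in every library, and no library of NSCs or AGES reached the level of any primary group. Pcdh10 led in neoAC direct with 31.4% ± 1.31 of the sum and in neoAC CellC with 33.8% ± 2.56. Pcdh9 led in AdAC direct with 40.9% ± 2.36 and in NSCs with 26.2% ± 4.25. Pcdh1 led in AGES with 35.7% ± 4.31 and in AdAC CellC with 23.6% ± 1.31, where Pcdh9 had 21.5% ± 0.922. By the longest transcript Pcdh9 and Pcdh10 had about the same share in NSCs, 21.1% ± 3.69 and 21.3% ± 2.98, and the other leaders held. By that length type I cadherins held 91.1% in NSCs, 78.6% in AGES, 72.4% in neoAC CellC, 49.9% in neoAC direct, 74.9% in AdAC CellC and 28.8% in AdAC direct, in the same order of groups.

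**Figure D2:**
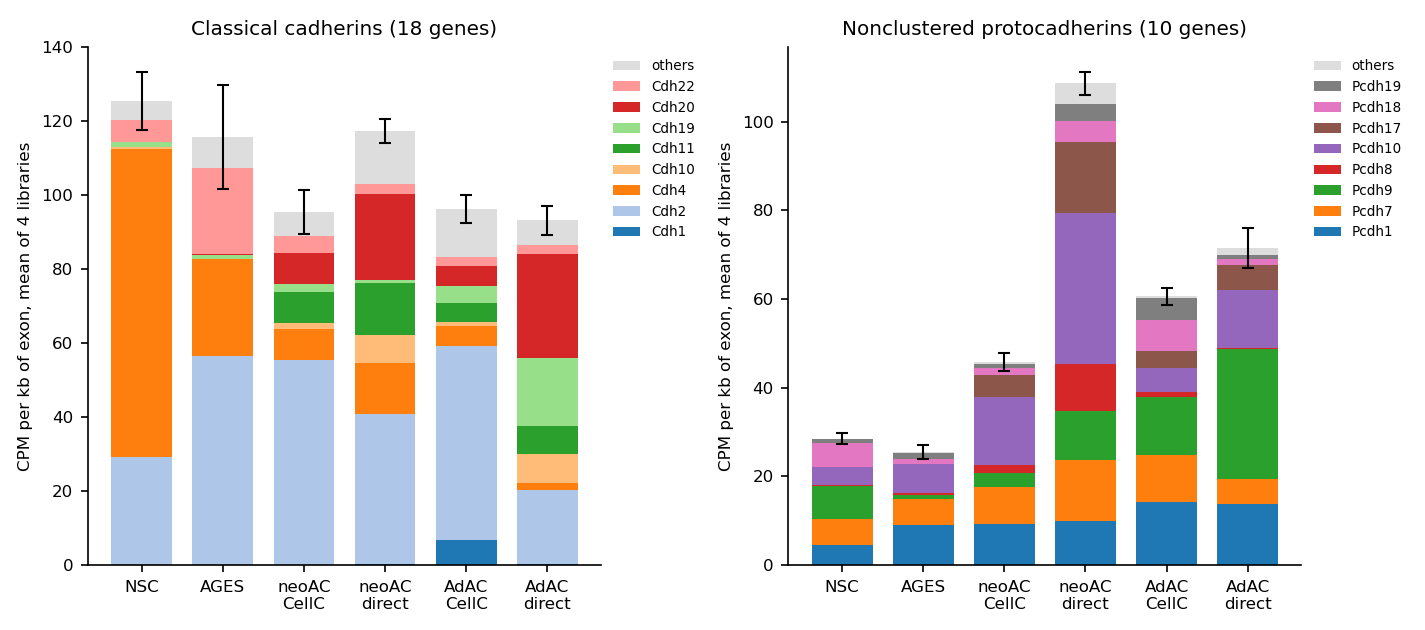
Stacked mean CPM per kb of exon in the 6 groups for the 18 classical cadherins (left) and 10 nonclustered protocadherins (right), with the SD of the class sum over 4 libraries as error bars. Cdh4 fills most of the NSC bar, Cdh2 the largest share of the AGES and cultured bars, and Cdh20, Cdh19 and Cdh2 share the AdAC direct bar.

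Culture, age and stem cell origin were each tested gene by gene in edgeR's quasi-likelihood model, two-sided, with Benjamini-Hochberg adjustment over 19691 genes and a threshold of 0.05. The first comparison was of cultured with directly isolated adult cells. A change with culture here means a difference between such groups, whose marker sums for several cell types also differed. In AdAC CellC against AdAC direct 15 members were higher and 12 lower, beside 38.8% of all genes higher and 39.2% lower, with a median log2 fold change of 0.05 for members and 0.00 for all genes. In neoAC CellC against neoAC direct 7 were higher and 19 lower, beside 34.4% and 31.3% of all genes, with medians of -0.74 and 0.04. The lower count covers 61.3% of the tested members. In AGES against NSCs 9 were higher and 7 lower, beside 31.7% and 34% of all genes, with medians of 0.30 and 0.00. Without the members at the floor in both groups, and with the 2 at the floor in 1 of them at their bound, the median of AGES against NSCs was 0.05 over 23 members. Each of these comparisons shares groups with others, so their counts are not independent.

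AGES were then set against the cultured primary cells they are meant to stand in for. Against AdAC CellC 5 members were higher and 24 lower, beside 31% and 45.2% of all genes, with medians of -3.24 for members and -0.23 for all genes. Against neoAC CellC 6 were higher and 20 lower, beside 34.1% and 40.5% of all genes, with medians of -1.77 and -0.07. The lower members made up 77.4% and 64.5% of those tested. These medians include 9 genes at the floor in AGES, for which the fitted value is not a size; with these genes at the lower bound of their fold the medians were -2.53 and -1.56. Between the cultured groups, neoAC CellC had 12 members higher and 12 lower than AdAC CellC, beside 28.5% and 35.2% of all genes, with medians of 0.08 and -0.08. Between the directly isolated groups, 18 were higher in neoAC and 9 in AdAC, beside 35% and 36.4% of all genes, and the medians were 1.01 for members and 0.00 for all genes.

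Members changed with culture in opposite directions or together at the 2 ages. Of the 31 tested, 11 were higher after culture of adult cells and lower after culture of neonatal cells (Cdh1, Cdh4, Cdh5, Cdh6, Cdh13, Cdh24, Pcdh7, Pcdh8, Pcdh12, Pcdh18 and Pcdh19), and 3 were lower in adult and higher in neonatal culture (Cdh19, Cdh26 and Pcdh15). A further 8 were lower at both ages (Cdh8, Cdh10, Cdh11, Cdh20, Pcdh9, Pcdh10, Pcdh17 and Pcdh20), and Cdh2 was the 1 member higher at both. Of all 19691 genes, 7.54% were higher in adult and lower in neonatal culture, 11.1% lower in adult and higher in neonatal culture, 17.1% lower at both ages and 17.5% higher at both. The difference between the ages was itself tested as an interaction, in which 17 members had a more positive culture effect in adult cells and 9 a more negative effect, beside 35.4% and 33.2% of all genes, with medians of 0.93 and 0.05. All 14 members with opposite directions passed this test, which opposite calls in the same fit make nearly certain, so it adds little to those calls. Pcdh1 was called in neither age nor in the interaction.

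**Figure D3:**
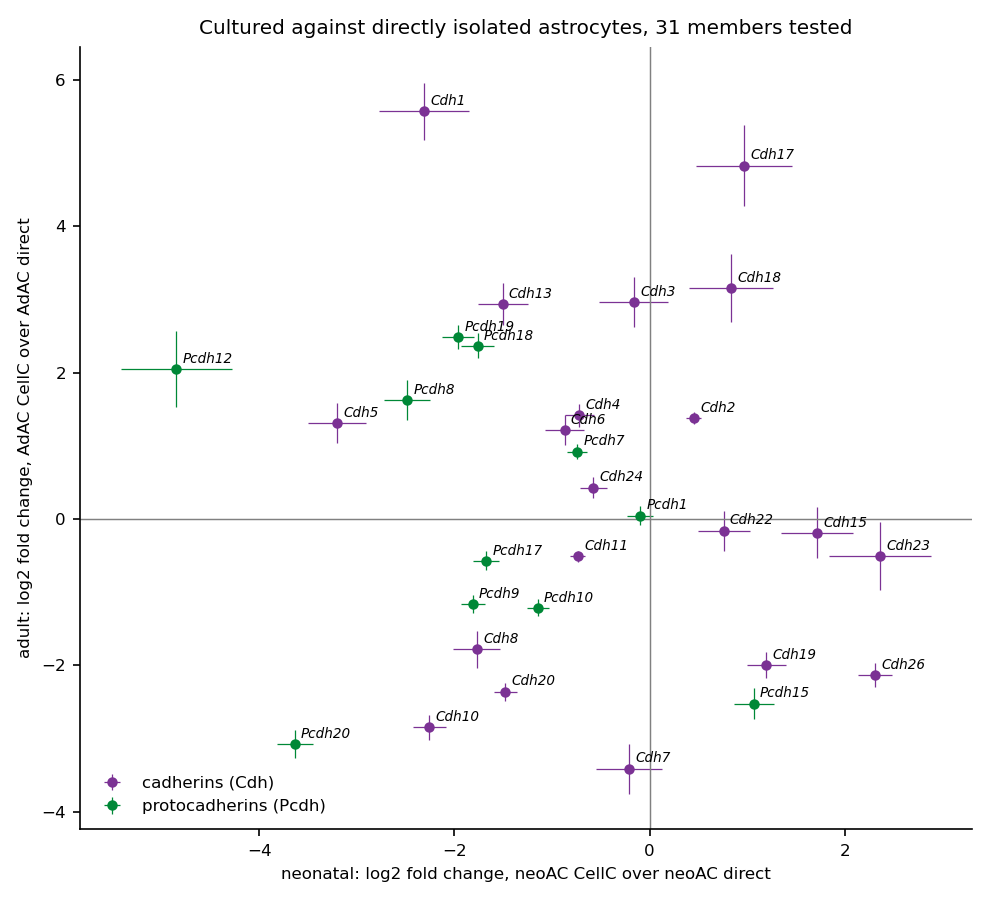
Log2 fold change of cultured against directly isolated cells in neonatal (horizontal) and adult (vertical) astrocytes for the 31 tested members, with SE as error bars. The upper left holds the 11 members higher in adult and lower in neonatal culture, with Cdh1, Pcdh12, Pcdh19 and Cdh13 far from the origin, and the lower right holds Cdh19, Cdh26 and Pcdh15.

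Among type I cadherins, Cdh2 (N-cadherin), which holds neural progenitors together and is the main adhesion cadherin of astrocytes, was high in all groups. Cdh2 gave 240.4, 236, 222 and 241 CPM in NSCs and 447, 388, 539 and 444 CPM in AGES. In neonatal cells, Cdh2 was counted at 319.7, 310.3, 348 and 324 CPM directly after isolation and at 447, 447, 419 and 473 CPM after culture. Adult cells gave Cdh2 values of 168, 164, 159 and 156 CPM directly after isolation and 432, 417, 407 and 434 CPM after culture. The 3 cultured astrocyte populations overlapped at about the same level, and the AdAC direct libraries were below all others. Culture raised Cdh2 by a log2 fold change of 1.38 (SE 0.08, edgeR adjusted p = 2.74e-14) in adult and of 0.45 (SE 0.08, edgeR adjusted p = 1.27e-05) in neonatal cells, and AGES exceeded NSCs by 0.95 (SE 0.08, edgeR adjusted p = 4.04e-11). The difference of AGES from neoAC CellC was 0.03 (SE 0.08, edgeR adjusted p = 0.762), and that of AGES from AdAC CellC was 0.11 (SE 0.08, edgeR adjusted p = 0.211), neither past the threshold. Without replicate 2 of AGES the latter passed, at 0.17 with an adjusted p of 0.0396. The sign of the former turned when libraries were scaled by library size only, to -0.28, and to -0.18 with the filter that asks for 10 or more counts in each library.

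Cdh4 (R-cadherin), a close relative of Cdh2 that is found in the developing brain and retina, followed another order. Cdh4 gave 611, 534, 591 and 685 CPM in NSCs and 203, 213, 209 and 138 CPM in AGES. In neonatal cells, Cdh4 was counted at 103, 89.6, 125 and 86.8 CPM directly after isolation and at 81.2, 52, 54 and 58.8 CPM after culture. Adult cells gave Cdh4 values of 12.7, 16.1, 17.2 and 12.7 CPM directly after isolation and 37.1, 35.6, 39.6 and 44.4 CPM after culture. The groups did not overlap in the order NSC, AGES, neoAC direct, neoAC CellC, AdAC CellC and AdAC direct. The level in AGES was below that in NSCs, with a log2 fold change of -1.66 (SE 0.15, edgeR adjusted p = 3.58e-10), yet above AdAC CellC by 2.28 (SE 0.16, edgeR adjusted p = 1.1e-12). Culture lowered Cdh4 in neonatal cells (log2 fold change -0.72, SE 0.15, edgeR adjusted p = 0.000162), and raised it in adult cells (log2 fold change 1.42, SE 0.16, edgeR adjusted p = 1.01e-08), and directly isolated neonatal cells exceeded adult ones by 2.78 (SE 0.16, edgeR adjusted p = 8.7e-14).

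Cdh1 (E-cadherin), the junctional cadherin of epithelia, and Cdh3 (P-cadherin), its neighbour on chromosome 8, were at the floor in NSCs and AGES. Cdh3 lies at chr8:106510891-106557297 and Cdh1 at chr8:106603351-106670246, both on the plus strand of GRCm38. Cdh1 gave 0, 0, 0 and 0 CPM in NSCs and 0, 0, 0.0641 and 0 CPM in AGES. In neonatal cells, Cdh1 was counted at 1.79, 0.665, 1.53 and 2.0 CPM directly after isolation and at 0.281, 0.367, 0.36 and 0.166 CPM after culture. Adult cells gave Cdh1 values of 1.06, 0.587, 0.505 and 0.48 CPM directly after isolation and 21.2, 22.1, 56.8 and 23.7 CPM after culture. AdAC CellC stood above all other groups, with replicate 3 above the other 3 libraries of its group. The log2 fold change over AdAC direct was 5.57 (SE 0.39, edgeR adjusted p = 2.78e-11), and it was 5.11 without that replicate. In neonatal cells culture went the other way (log2 fold change -2.31, SE 0.46, edgeR adjusted p = 0.000159), and the interaction was 7.89 (SE 0.59, edgeR adjusted p = 1.51e-10). AdAC CellC was at least 310.5-fold higher than the floor in AGES (edgeR adjusted p = 9.76e-13).

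Cdh3 had the same high group. Cdh3 gave 0, 0.0304, 0 and 0.0669 CPM in NSCs and 0, 0.058, 0 and 0 CPM in AGES. In neonatal cells, Cdh3 was counted at 1.79, 2.3, 1.6 and 0.798 CPM directly after isolation and at 0.718, 2.49, 1.33 and 1.25 CPM after culture. Adult cells gave Cdh3 values of 1.6, 1.14, 1.01 and 2.51 CPM directly after isolation and 14.3, 14.9, 10.2 and 9.71 CPM after culture. The AdAC CellC libraries lay above all others, and the 3 other primary groups overlapped. Adult culture raised Cdh3 by a log2 fold change of 2.96 (SE 0.34, edgeR adjusted p = 1.88e-08), while in neonatal culture the value was -0.16 (SE 0.35, edgeR adjusted p = 0.706). AdAC CellC was at least 123-fold above the floor in AGES. The sum of 5 epithelial markers (Epcam, Krt8, Krt18, Cldn7 and Esrp1) was highest where both genes were, at 80.2 to 188 CPM in AdAC CellC, 27.7 to 30.5 in AdAC direct, where Cldn7 was at the floor, 5.43 to 12 in neoAC CellC, where Esrp1 was, and 3.13 to 5.18 in neoAC direct, where both were. Replicate 3 of AdAC CellC was the highest of its group for the marker sum and for Cdh1, but not for Cdh3. Elsewhere the markers and Cdh1 parted: after neonatal culture 1 of the 5 was higher (Krt8) and none lower while Cdh1 was lower, and 4 of the 5 were lower in neoAC direct than in AdAC direct while Cdh1 was higher (log2 fold change 1.19, SE 0.42, edgeR adjusted p = 0.0147). Without replicate 4 of neoAC direct that value was 1.01 with an adjusted p of 0.0562. The sum of 6 fibroblast and meningeal markers was also highest in AdAC CellC, at 1068 to 1552 CPM, with all 6 higher in adult culture. In neonatal culture, where Cdh1 was lower, 4 of these were higher and 1 lower. The part of epithelial, fibroblast or meningeal cells in the Cdh1 and Cdh3 values was not tested.

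Cdh15 (M-cadherin), known from muscle precursors, was low in every group. Cdh15 gave 0, 0, 0.0318 and 0 CPM in NSCs and 0, 0, 0.032 and 0.0987 CPM in AGES. In neonatal cells, Cdh15 was counted at 0.358, 0.249, 0.136 and 0.499 CPM directly after isolation and at 1.31, 0.891, 1.08 and 0.831 CPM after culture. Adult cells gave Cdh15 values of 0.816, 0.772, 0.624 and 0.705 CPM directly after isolation and 0.43, 0.70, 0.558 and 0.869 CPM after culture. No library exceeded 1.31 CPM. Neonatal culture raised it by 1.72 (SE 0.37, edgeR adjusted p = 0.000237) on the log2 scale, with no overlap of the libraries, and adult culture gave -0.19 (SE 0.35, edgeR adjusted p = 0.625). neoAC CellC was at least 10.3-fold above the floor in AGES.

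Of the 13 type II cadherins, 11 were tested. Adult culture gave 4 higher and 6 lower, beside 38.8% and 39.2% of all genes. Neonatal culture gave 2 higher and 7 lower, beside 34.4% and 31.3%, and AGES against neoAC CellC 2 higher and 8 lower, beside 34.1% and 40.5%. Upstream sequences are shown for 4 members, chosen after their values were seen: Cdh20, Pcdh17 and Pcdh20, which were at the floor or low in NSCs and AGES and higher in directly isolated cells, and Cdh6, which had its highest level in AGES. Each is the stretch of 250 bases before the RefSeq start (build GRCm38.p6), read 5′ to 3′ on the strand of the gene, at chr1:104768270-104768519 on the plus strand, chr14:84443313-84443562 on the plus strand, chr14:88471397-88471646 on the minus strand and chr15:13173676-13173925 on the minus strand, all outside the gene in Gencode. Capitals mark the letters TTGGC, a recognition element of nuclear factor I, a factor family of astrocyte development, or its complement GCCAA.
Cdh20: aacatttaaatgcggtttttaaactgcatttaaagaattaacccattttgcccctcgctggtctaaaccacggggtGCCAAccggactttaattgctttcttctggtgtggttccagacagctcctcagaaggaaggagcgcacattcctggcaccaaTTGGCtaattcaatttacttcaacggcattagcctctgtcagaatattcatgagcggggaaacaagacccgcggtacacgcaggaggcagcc
Pcdh17: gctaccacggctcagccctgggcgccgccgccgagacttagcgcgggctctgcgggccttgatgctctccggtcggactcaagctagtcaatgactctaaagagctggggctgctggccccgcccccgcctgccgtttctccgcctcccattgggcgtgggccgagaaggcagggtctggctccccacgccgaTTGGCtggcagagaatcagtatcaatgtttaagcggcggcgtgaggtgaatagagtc
Pcdh20: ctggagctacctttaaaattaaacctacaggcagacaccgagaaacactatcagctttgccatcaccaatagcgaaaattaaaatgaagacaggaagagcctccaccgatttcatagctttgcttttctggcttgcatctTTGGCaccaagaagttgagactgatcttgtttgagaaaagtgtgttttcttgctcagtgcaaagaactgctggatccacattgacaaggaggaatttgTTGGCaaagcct
Cdh6: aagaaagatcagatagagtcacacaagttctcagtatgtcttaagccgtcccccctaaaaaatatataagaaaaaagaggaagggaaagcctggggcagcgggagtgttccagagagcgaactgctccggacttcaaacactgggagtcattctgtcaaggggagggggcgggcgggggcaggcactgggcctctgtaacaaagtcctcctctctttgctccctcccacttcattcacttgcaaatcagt

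These letters occurred 2 times in the Cdh20 window, 1 time in that of Pcdh17, 2 times in that of Pcdh20 and 0 times in that of Cdh6. Windows were found for 22 of the 34 members, and 13 of these held them on either strand, beside 41.5% of all 32851 windows of this length outside chromosome 18. Cdh8 and Cdh26, also at the floor or low in NSCs and AGES and higher in directly isolated cells, had 0 in their windows. The window of Pcdh10, a gene present in every NSC and AGES library, had 3. Whether the letters go with the level of the members was not tested. The E-box CACCTG or its complement CAGGTG, the letters read by Snai and Zeb repressors, was in a window of 2 members and in 17.2% of all windows, and in none of the 4 shown. Neither motif contains the other. A match is a description of the letters and not of a bound site.

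Cdh20, a type II cadherin of the nervous system, lay at chr1:104768529-104995481, plus strand. Cdh20 gave 0.13, 0.304, 0.127 and 0.167 CPM in NSCs and 0.234, 0.087, 0.0641 and 0.165 CPM in AGES. In neonatal cells, Cdh20 was counted at 94, 95.5, 91.9 and 89.98 CPM directly after isolation and at 39.1, 28.4, 32.3 and 33.6 CPM after culture. Adult cells gave Cdh20 values of 114, 117, 102 and 114 CPM directly after isolation and 15.8, 25, 23.3 and 23 CPM after culture. Every primary library was far above every NSC and AGES library. The log2 fold change with culture was -2.36 (SE 0.12, edgeR adjusted p = 5.26e-15) in adult and -1.48 (SE 0.12, edgeR adjusted p = 5.77e-11) in neonatal cells. Directly isolated neonatal cells were below adult ones (log2 fold change -0.27, SE 0.12, edgeR adjusted p = 0.0399), a difference that passed the threshold in 1 of 8 fits that each left out a library of these groups, with adjusted p-values of 0.052 to 0.0946 in the others. AGES did not differ detectably from NSCs (log2 fold change -0.47, SE 0.46, edgeR adjusted p = 0.384), and were below neoAC CellC (log2 fold change -7.94, SE 0.22, edgeR adjusted p = 6.47e-21). The oligodendrocyte marker sum was 28000 to 31735 CPM in AdAC direct, 4368 to 11070 in AdAC CellC and 328 to 403 in neoAC direct. The part of oligodendrocytes in the Cdh20 values was not tested.

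Cdh10, another type II cadherin of the brain, was also lower after culture. Cdh10 gave 5.57, 2.85, 4.52 and 6.05 CPM in NSCs and 0.429, 1.45, 0.705 and 0.79 CPM in AGES. In neonatal cells, Cdh10 was counted at 74.5, 68.8, 69 and 89.9 CPM directly after isolation and at 17.6, 14.1, 16 and 15.5 CPM after culture. Adult cells gave Cdh10 values of 75.1, 73.1, 81 and 87.2 CPM directly after isolation and 10.2, 11.4, 11.2 and 11 CPM after culture. The directly isolated groups overlapped each other and lay above all others. Culture gave log2 fold changes of -2.85 (SE 0.17, edgeR adjusted p = 1.2e-13) in adult and -2.26 (SE 0.17, edgeR adjusted p = 1.38e-11) in neonatal cells. AGES were below NSCs (log2 fold change -2.44, SE 0.23, edgeR adjusted p = 1.02e-09), and all NSC and AGES libraries were below every primary library.

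Cdh11 (OB-cadherin), known from mesenchymal cells and also present in the brain, separated the primary cells from the stem cell line. Cdh11 gave 0.196, 0.121, 0.159 and 0.301 CPM in NSCs and 0.273, 0.174, 0.256 and 0.329 CPM in AGES. In neonatal cells, Cdh11 was counted at 127, 125, 120.2 and 131 CPM directly after isolation and at 71.3, 75.4, 73 and 82.2 CPM after culture. Adult cells gave Cdh11 values of 66.9, 67.1, 63.7 and 66.7 CPM directly after isolation and 44.3, 43.9, 50.5 and 46.9 CPM after culture. The lowest primary library had 43.9 CPM of Cdh11 and the highest AGES library 0.329. AGES fell short of neoAC CellC (log2 fold change -8.19, SE 0.13, edgeR adjusted p = 4.72e-25) and of AdAC CellC (log2 fold change -7.49, SE 0.13, edgeR adjusted p = 2.93e-24). With culture, Cdh11 had log2 fold changes of -0.51 (SE 0.08, edgeR adjusted p = 1.34e-06) in adult and -0.73 (SE 0.08, edgeR adjusted p = 5.12e-09) in neonatal cells, and the interaction of 0.22 (SE 0.11, edgeR adjusted p = 0.067) did not pass the threshold. It did pass without replicate 4 of neoAC CellC, at 0.28 with an adjusted p of 0.0328, and without replicate 2 of AdAC CellC, at 0.26 with an adjusted p of 0.048. Cdh11 is known from fibroblasts, and the sum of 6 fibroblast and meningeal markers was 80.2 to 97.7 CPM in AdAC direct and 1068 to 1552 in AdAC CellC, 189 to 311 in neoAC direct and 382 to 641 in neoAC CellC. The sum was higher after culture at both ages, where Cdh11 was lower, and higher in neoAC direct than in AdAC direct, as was Cdh11 (log2 fold change 0.93, SE 0.08, edgeR adjusted p = 5.65e-11). The part of fibroblasts in these values was not tested.

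Cdh6 (K-cadherin) was the member with the largest called rise from NSCs to AGES. Cdh6 gave 4.21, 2.88, 2.04 and 5.18 CPM in NSCs and 57.9, 62.7, 43.2 and 31.3 CPM in AGES. In neonatal cells, Cdh6 was counted at 23, 20.4, 22.6 and 20.2 CPM directly after isolation and at 12.9, 12, 9.92 and 12.4 CPM after culture. Adult cells gave Cdh6 values of 6.03, 6.64, 5.17 and 5.7 CPM directly after isolation and 12.6, 12.3, 12.5 and 17.1 CPM after culture. AGES lay above all other groups. They exceeded NSCs by a log2 fold change of 3.77 (SE 0.22, edgeR adjusted p = 1.14e-13), AdAC CellC by 1.84 (SE 0.20, edgeR adjusted p = 8.33e-09) and neoAC CellC by 2.05 (SE 0.20, edgeR adjusted p = 1.52e-09). Culture raised Cdh6 in adult cells (log2 fold change 1.21, SE 0.21, edgeR adjusted p = 1.03e-05), and lowered it in neonatal cells (log2 fold change -0.87, SE 0.20, edgeR adjusted p = 0.000458).

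Cdh22, a type II cadherin first described in pituitary and brain, was likewise highest in AGES. Cdh22 gave 19.1, 35.3, 16.5 and 15.4 CPM in NSCs and 54, 54.2, 116 and 123 CPM in AGES. In neonatal cells, Cdh22 was counted at 10.1, 11.5, 11.1 and 8.18 CPM directly after isolation and at 21.1, 14.8, 13.2 and 20.3 CPM after culture. Adult cells gave Cdh22 values of 9.51, 10.01, 10.2 and 9.0 CPM directly after isolation and 8.29, 9.36, 7.62 and 9.46 CPM after culture. AGES replicates 3 and 4 were well above replicates 1 and 2, and the lowest of the 4 still exceeded every library of the other groups. Cdh22 in AGES had log2 fold changes of 2.01 (SE 0.26, edgeR adjusted p = 4.28e-07) over NSCs, 3.32 (SE 0.28, edgeR adjusted p = 2.33e-10) over AdAC CellC and 2.32 (SE 0.27, edgeR adjusted p = 4.47e-08) over neoAC CellC. Neonatal culture raised it by 0.76 (SE 0.27, edgeR adjusted p = 0.016), a call lost without replicate 1 of neoAC CellC, where the value was 0.65 with an adjusted p of 0.0541, or without replicate 4 of neoAC direct, 0.67 with an adjusted p of 0.0578.

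**Figure D4:**
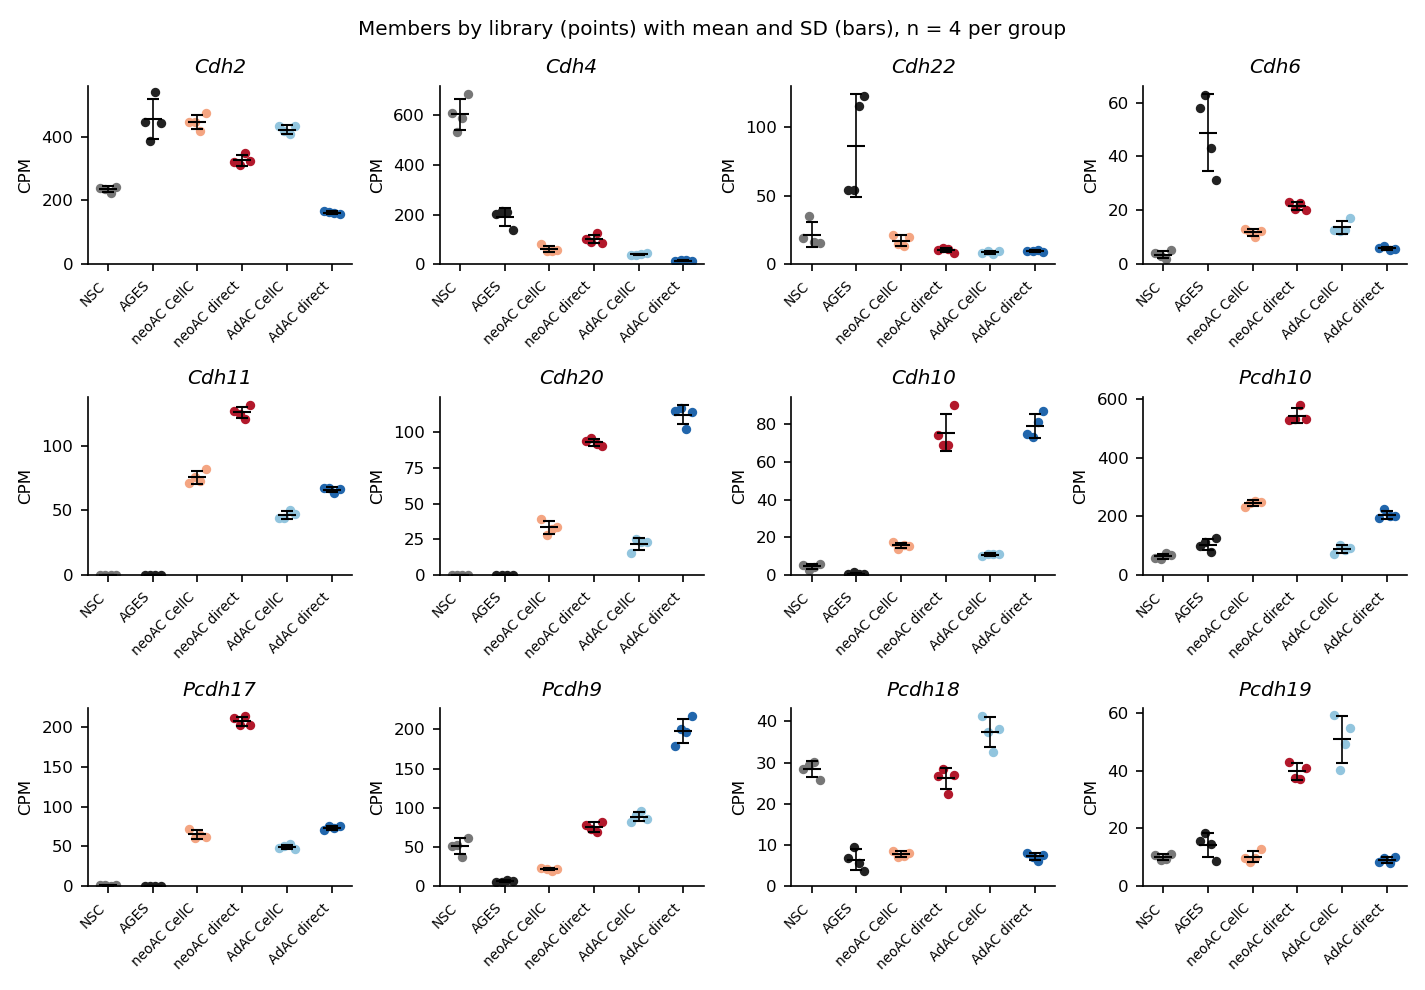
CPM of 12 members in each library (points) with the mean and SD of 4 libraries (bars) for the 6 groups, each panel with its own axis from 0. Cdh2 is similar in AGES and both cultured groups, Cdh4 is highest in NSCs, Cdh6 and Cdh22 in AGES, and Cdh11, Cdh20 and Pcdh17 are low in NSCs and AGES.

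Cdh19 and Cdh7, on the same chromosome as Cdh20 (Cdh7 at chr1:109982431-110140157 and Cdh19 at chr1:110888326-110977584), were highest in directly isolated adult cells. Cdh19 is known from the Schwann cell lineage. Cdh19 gave 5.12, 5.71, 7.42 and 6.22 CPM in NSCs and 5.03, 4.64, 3.65 and 5.89 CPM in AGES. In neonatal cells, Cdh19 was counted at 2.54, 3.32, 3.33 and 5.75 CPM directly after isolation and at 10.1, 8.23, 7.29 and 8.62 CPM after culture. Adult cells gave Cdh19 values of 86.7, 63.3, 73 and 93.5 CPM directly after isolation and 16.7, 19.4, 25 and 18 CPM after culture. AdAC direct lay above every other library, and AdAC CellC above the rest. Adult culture lowered Cdh19 (log2 fold change -2.0, SE 0.18, edgeR adjusted p = 2.88e-10) and neonatal culture raised it by 1.20 (SE 0.20, edgeR adjusted p = 1.01e-05), and neonatal cells were below adult ones directly after isolation (log2 fold change -4.41, SE 0.21, edgeR adjusted p = 1.59e-15).

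Cdh7 was detected at low levels in primary cells alone. Cdh7 gave 0, 0, 0 and 0 CPM in NSCs and 0, 0, 0 and 0 CPM in AGES. In neonatal cells, Cdh7 was counted at 0.813, 0.665, 0.679 and 1.36 CPM directly after isolation and at 0.374, 0.943, 0.942 and 0.748 CPM after culture. Adult cells gave Cdh7 values of 4.47, 3.92, 4.25 and 6.04 CPM directly after isolation and 0.553, 0.583, 0.186 and 0.434 CPM after culture. AdAC direct was above the other 3 primary groups, of which neoAC CellC overlapped with both others. Its log2 fold change in adult culture was -3.41 (SE 0.34, edgeR adjusted p = 1.97e-08) and directly isolated neonatal cells were below adult ones (log2 fold change -2.41, SE 0.32, edgeR adjusted p = 1.23e-06). The oligodendrocyte marker sum (8 genes, none at the floor) ran alongside both genes among the adult groups, at 28000.3 to 31735 CPM in AdAC direct and 4368 to 11070.2 in AdAC CellC, against 328 to 403 in neoAC direct and 272 to 351 in neoAC CellC. By gene, 7 of the 8 were lower in adult culture, and in neonatal culture, where Cdh19 rose, 6 were higher and Cnp lower, with a median log2 fold change of 1.24. The part of oligodendrocytes in these values was not tested.

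Cdh5 (VE-cadherin), the junctional cadherin of endothelial cells, was at 0 in all AGES libraries. Cdh5 gave 0.619, 1.18, 0.478 and 0.87 CPM in NSCs and 0, 0, 0 and 0 CPM in AGES. In neonatal cells, Cdh5 was counted at 19.1, 41.9, 14 and 15.3 CPM directly after isolation and at 2.4, 3.17, 1.83 and 2.41 CPM after culture. Adult cells gave Cdh5 values of 7.42, 7.38, 7.37 and 6.26 CPM directly after isolation and 19.95, 15, 15.3 and 20.1 CPM after culture. Replicate 2 of neoAC direct was above the other 3 of its group. AdAC CellC was above AdAC direct by a log2 fold change of 1.31 (SE 0.27, edgeR adjusted p = 0.000172), and neoAC CellC was below neoAC direct (log2 fold change -3.20, SE 0.30, edgeR adjusted p = 4.44e-09), or -2.72 without that replicate. AdAC CellC was at least 177-fold and NSCs at least 7.9-fold above the floor in AGES. The sum of 8 endothelial markers was 96.4 to 394 CPM in neoAC direct, 41.3 to 69.1 in neoAC CellC, 93.9 to 102 in AdAC direct and 64.6 to 72.9 in AdAC CellC. In neonatal cells it was lower after culture, as was Cdh5, and replicate 2 of neoAC direct was the highest for both, whereas in adult cells Cdh5 was higher after culture and the marker sum was lower. By gene, 7 of the 8 markers were lower in neonatal culture, with a median log2 fold change of -5.21, and the same 7 were lower in neoAC CellC than in AdAC CellC, with a median of -4.56, whereas Kdr was not called in the first comparison and higher in the second. In adult culture 3 were lower (Cldn5, Flt1 and Tek) and 5 were not called. The part of endothelial cells in the Cdh5 values was not tested.

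Cdh18, a cadherin of cortical neurons, was at 0 in every NSC and AGES library. Cdh18 gave 0, 0, 0 and 0 CPM in NSCs and 0, 0, 0 and 0 CPM in AGES. In neonatal cells, Cdh18 was counted at 0.39, 0.554, 0.102 and 0.432 CPM directly after isolation and at 0.187, 0.681, 0.887 and 0.914 CPM after culture. Adult cells gave Cdh18 values of 0.106, 0.124, 0.208 and 0.226 CPM directly after isolation and 1.5, 1.84, 1.41 and 1.4 CPM after culture. AdAC CellC was above the other groups. The log2 fold change in adult culture was 3.16 (SE 0.46, edgeR adjusted p = 3.73e-06) and the value in neonatal culture was 0.84 (SE 0.43, edgeR adjusted p = 0.0954), which passed without replicate 1 of neoAC CellC, at 1.13 with an adjusted p of 0.0127. A sum of 6 neuron markers was 177 to 251 CPM in AdAC CellC, 45.2 to 58.1 in AdAC direct, 85.5 to 95.7 in neoAC CellC and 51.6 to 66.7 in neoAC direct. By gene, 3 of the 6 were higher in adult culture (Tubb3, Stmn2 and Gap43) and 2 lower (Snap25 and Rbfox3), and the part of neurons in the Cdh18 values was not tested.

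The other type II members, outside the naming rule, were Cdh8 and Cdh24. Cdh8 fell from 2.93 ± 0.80 to 0.854 ± 0.266 CPM in adult and from 5.02 ± 0.439 to 1.47 ± 0.282 CPM in neonatal culture. Cdh24 was present in all groups in a narrow range, from 9.72 ± 1.21 CPM in AdAC direct to 18.4 ± 3.4 in neoAC direct, with 16 ± 3.12 in NSCs and 10.1 ± 0.404 in AGES.

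Cdh13 (T-cadherin) lacks the membrane-spanning and cytoplasmic parts of classical cadherins, is held by a GPI anchor and serves as a receptor for adiponectin. Cdh13 gave 77.7, 112, 32.3 and 54 CPM in NSCs and 72.7, 71.9, 132 and 62.9 CPM in AGES. In neonatal cells, Cdh13 was counted at 90.04, 91, 89.8 and 83.6 CPM directly after isolation and at 33.9, 26.9, 28.3 and 35.7 CPM after culture. Adult cells gave Cdh13 values of 4.65, 3.89, 4.7 and 4.29 CPM directly after isolation and 31.2, 31.6, 31.7 and 39.9 CPM after culture. AdAC direct was far below all other groups, and both cultured groups overlapped. Culture raised Cdh13 by a log2 fold change of 2.94 (SE 0.29, edgeR adjusted p = 4.05e-09) in adult cells and lowered it (log2 fold change -1.51, SE 0.26, edgeR adjusted p = 2.19e-05) in neonatal cells. Directly isolated neonatal cells exceeded adult ones by 4.34 (SE 0.30, edgeR adjusted p = 1.31e-11). NSCs and AGES overlapped (log2 fold change 0.30, SE 0.25, edgeR adjusted p = 0.309), with a spread of NSC libraries from 32.3 to 112 CPM. Without replicate 2 of NSCs the difference passed, at 0.64 with an adjusted p of 0.0171.

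Cdh17, the liver-intestine cadherin, was among the scarcest members. Cdh17 gave 0.0326, 0.0304, 0 and 0 CPM in NSCs and 0.039, 0.348, 0.192 and 0.0658 CPM in AGES. In neonatal cells, Cdh17 was counted at 0.228, 0.277, 0.238 and 0.0998 CPM directly after isolation and at 0.718, 0.367, 0.249 and 0.36 CPM after culture. Adult cells gave Cdh17 values of 0, 0.0618, 0.119 and 0.0282 CPM directly after isolation and 2.33, 1.75, 1.2 and 1.27 CPM after culture. AdAC CellC was above all other groups. The fitted log2 fold change over AdAC direct was 4.83 (SE 0.55, edgeR adjusted p = 1.57e-08), and it was 5.55 without replicate 3 of AdAC direct. It followed the same order as Cdh1 between the adult groups, beside the epithelial marker sums given above. Its relative Cdh16, the kidney cadherin, was at the floor in all 6 groups.

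Cdh23 and Pcdh15, which form the tip link of sensory hair cells, were higher in neoAC CellC than in neoAC direct, and both were lower in directly isolated neonatal than adult cells. Cdh23 gave 0.685, 0.243, 0.191 and 0.803 CPM in NSCs and 1.91, 7.31, 8.94 and 0.724 CPM in AGES. In neonatal cells, Cdh23 was counted at 0.488, 0.692, 0.476 and 0.532 CPM directly after isolation and at 2.78, 2.31, 3.63 and 2.72 CPM after culture. Adult cells gave Cdh23 values of 2.2, 2.53, 2.56 and 2.0 CPM directly after isolation and 1.78, 1.54, 1.75 and 1.46 CPM after culture. The AGES libraries were split, with replicates 2 and 3 above the other 2. Neonatal culture raised Cdh23 by 2.37 (SE 0.52, edgeR adjusted p = 0.000352) on the log2 scale, and the adult value was -0.51 (SE 0.47, edgeR adjusted p = 0.327). AGES were above NSCs by 3.31 (SE 0.53, edgeR adjusted p = 6.49e-06) although these groups overlapped.

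Pcdh15 was at the floor in NSCs and AGES. Pcdh15 gave 0.0326, 0, 0 and 0 CPM in NSCs and 0.039, 0.029, 0 and 0 CPM in AGES. In neonatal cells, Pcdh15 was counted at 3.32, 4.04, 2.14 and 3.23 CPM directly after isolation and at 6.99, 4.27, 7.43 and 8.12 CPM after culture. Adult cells gave Pcdh15 values of 12.6, 15, 13.9 and 14.2 CPM directly after isolation and 1.84, 2.51, 2.79 and 2.51 CPM after culture. AdAC direct was the highest group, and neoAC CellC lay above neoAC direct in every library. Adult culture lowered Pcdh15 (log2 fold change -2.53, SE 0.21, edgeR adjusted p = 6.18e-11), neonatal culture raised it by 1.07 (SE 0.21, edgeR adjusted p = 7.05e-05), and neoAC CellC was at least 67.2-fold above the floor in AGES. Cdh26, an unusual cadherin outside the classes above, had the same order of the primary groups apart from AdAC CellC and neoAC direct, which changed places. Cdh26 gave 0.0978, 0.0304, 0.223 and 0.134 CPM in NSCs and 0, 0.145, 0.032 and 0.0329 CPM in AGES. In neonatal cells, Cdh26 was counted at 2.89, 3.18, 1.94 and 2.73 CPM directly after isolation and at 14.1, 12.1, 13 and 14.5 CPM after culture. Adult cells gave Cdh26 values of 33.7, 34.8, 34 and 36.7 CPM directly after isolation and 8.07, 8.74, 7.04 and 7.85 CPM after culture. None of the 4 primary groups overlapped another. Its log2 fold change was -2.13 (SE 0.16, edgeR adjusted p = 9.02e-12) in adult and 2.31 (SE 0.17, edgeR adjusted p = 1.49e-11) in neonatal culture, and the interaction was -4.45 (SE 0.24, edgeR adjusted p = 2.17e-14).

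Ependymal markers moved with Cdh26 and Pcdh15. The sum of 5 (Foxj1, Tmem212, Dynlrb2, Rsph1 and Ccdc153, none at the floor) was 1073 to 1226 CPM in AdAC direct and 228 to 329 in AdAC CellC, and it was 136 to 209.6 in neoAC direct and 1518 to 1941 in neoAC CellC. The sum was thus lower after culture of adult cells and higher after culture of neonatal cells, as were both genes, but it was highest in neoAC CellC, while both genes were highest in AdAC direct. The sum of 7 oligodendrocyte precursor markers was 1078 to 1300 CPM in AdAC direct and 358 to 596 in AdAC CellC. By gene, 4 were lower and 1 higher in adult culture. In neoAC direct that sum was 793 to 1137 CPM and in neoAC CellC 412 to 985, with 3 higher (Pdgfra, Sox10 and Lhfpl3) and 3 lower in neonatal culture. The part of ependymal cells or oligodendrocyte precursors in these values was not tested.

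**Figure D5:**
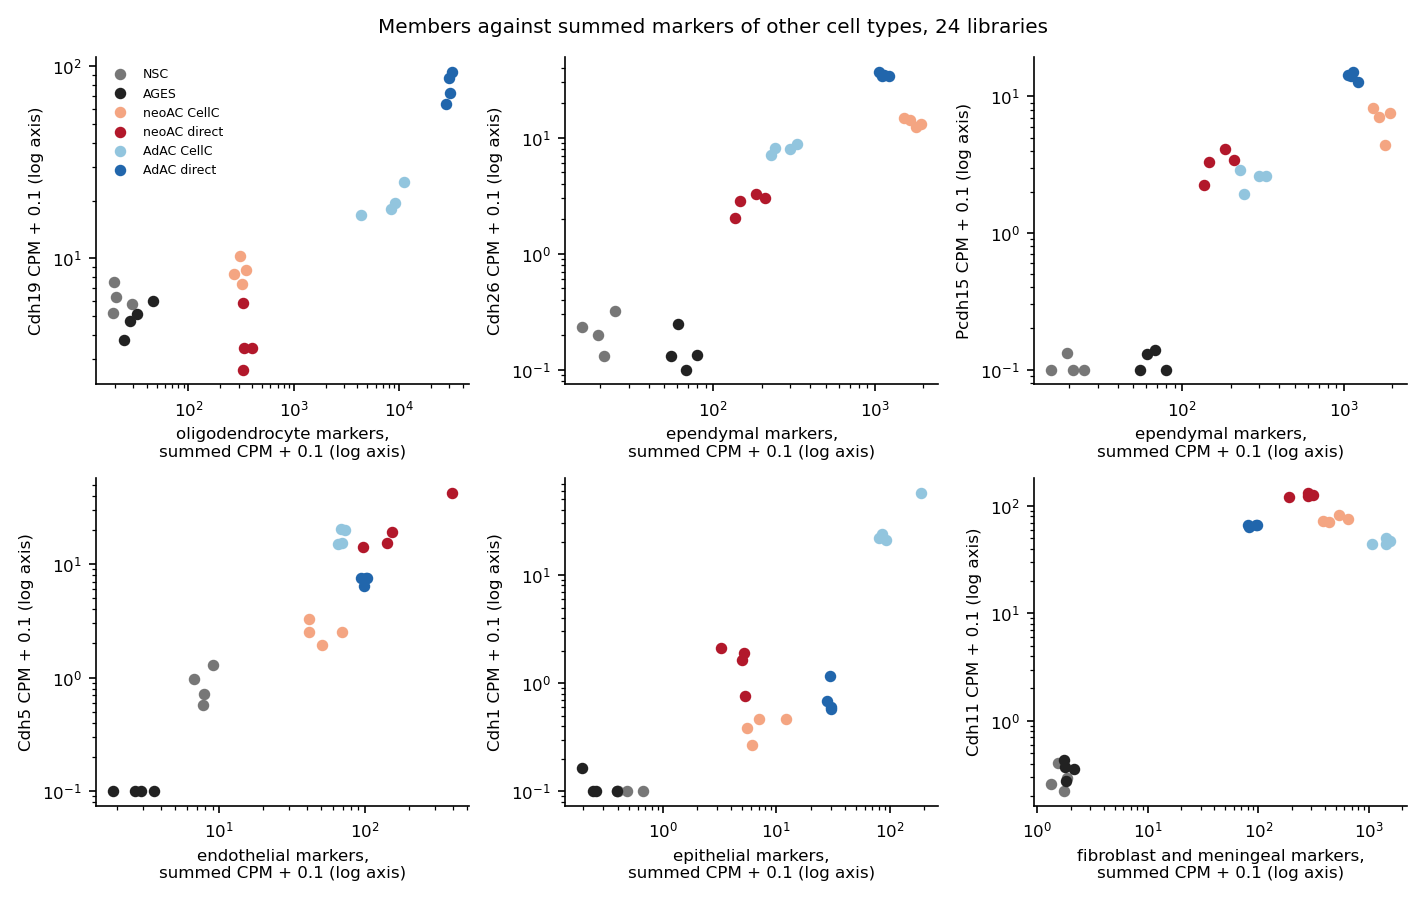
CPM of 6 members (vertical) against the summed CPM of a marker list (horizontal) in the 24 libraries, coloured by group, both axes logarithmic with 0.1 added. Cdh19 and Cdh1 run with their marker sums in the adult groups, Cdh5 is high with the endothelial sum in neonatal libraries, and Cdh11 is lower where the fibroblast sum is higher within each age.

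Among delta1 protocadherins, Pcdh9, the member with the highest level per kb of exon in AdAC direct and behind Cdh2 per kb of longest transcript, fell with culture at both ages. Pcdh9 gave 51.6, 52.9, 37.3 and 62 CPM in NSCs and 5.81, 4.93, 7.82 and 6.68 CPM in AGES. In neonatal cells, Pcdh9 was counted at 78.4, 72.9, 68.8 and 82 CPM directly after isolation and at 22.7, 21.4, 19.8 and 22.1 CPM after culture. Adult cells gave Pcdh9 values of 179, 200.3, 197 and 217 CPM directly after isolation and 82.2, 90.7, 95.9 and 85.5 CPM after culture. The AGES libraries were below all others and the AdAC direct libraries above all others. Pcdh9 had log2 fold changes of -1.16 (SE 0.12, edgeR adjusted p = 1.88e-09) in adult culture, -1.81 (SE 0.12, edgeR adjusted p = 1.9e-12) in neonatal culture and -3.01 (SE 0.13, edgeR adjusted p = 2.32e-16) in AGES against NSCs. AGES were below AdAC CellC (log2 fold change -3.81, SE 0.14, edgeR adjusted p = 1.64e-18). The oligodendrocyte marker sum was also highest in AdAC direct and lower after adult culture. In neonatal culture, where Pcdh9 was lower too, 6 of the 8 markers were higher and 1 lower. The part of oligodendrocytes in the Pcdh9 values was not tested.

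Pcdh1, known from airway epithelium, was present in every library. Pcdh1 gave 40.6, 34.1, 40.5 and 42.6 CPM in NSCs and 67.5, 68.8, 93.9 and 89.99 CPM in AGES. In neonatal cells, Pcdh1 was counted at 85.5, 108, 85.8 and 70.2 CPM directly after isolation and at 96.5, 75.9, 80.7 and 73.8 CPM after culture. Adult cells gave Pcdh1 values of 108, 149, 127 and 104 CPM directly after isolation and 113, 127, 139 and 126 CPM after culture. The NSC libraries were below all others, and the primary groups of 1 age overlapped. AGES exceeded NSCs by a log2 fold change of 1.02 (SE 0.13, edgeR adjusted p = 2.38e-07) and overlapped with neoAC CellC (log2 fold change -0.03, SE 0.13, edgeR adjusted p = 0.847). The culture values were 0.05 (SE 0.13, edgeR adjusted p = 0.749) in adult and -0.10 (SE 0.13, edgeR adjusted p = 0.529) in neonatal cells. Pcdh7, outside the naming rule, rose in adult culture from 59 ± 2.61 to 112 ± 2.8 CPM and fell in neonatal culture from 145 ± 3.72 to 87 ± 15.4 CPM.

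Delta2 protocadherins, which can recruit the actin regulator WAVE through their cytoplasmic part, were called together in 2 comparisons. All 5 (Pcdh8, Pcdh10, Pcdh17, Pcdh18 and Pcdh19) were lower in neoAC CellC than in neoAC direct, beside 31.3% of all genes, with a median log2 fold change of -1.76, and all 5 were higher in neoAC direct than in AdAC direct, beside 35% of all genes, with a median of 1.85. In adult culture 3 were higher and 2 lower.

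Pcdh10 was the nonclustered protocadherin with the highest level per kb in both neonatal groups. Pcdh10 gave 59.6, 55.9, 75.5 and 68.2 CPM in NSCs and 98, 114, 79.3 and 126 CPM in AGES. In neonatal cells, Pcdh10 was counted at 528, 531, 580.2 and 529.9 CPM directly after isolation and at 231, 247, 254 and 249.7 CPM after culture. Adult cells gave Pcdh10 values of 194, 226, 203 and 203 CPM directly after isolation and 73.9, 103, 85.8 and 93.4 CPM after culture. No library of neoAC CellC overlapped with another group, and neoAC direct was above it throughout. For Pcdh10, culture gave log2 fold changes of -1.21 (SE 0.12, edgeR adjusted p = 6.01e-10) in adult and -1.15 (SE 0.11, edgeR adjusted p = 3.04e-09) in neonatal cells, and the interaction of -0.07 (SE 0.16, edgeR adjusted p = 0.721) did not pass the threshold. neoAC CellC exceeded AdAC CellC by 1.46 (SE 0.12, edgeR adjusted p = 5.79e-11).

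Pcdh8, which is induced by neuronal activity, was highest in neoAC direct. Pcdh8 gave 0.587, 0.425, 0.732 and 0.702 CPM in NSCs and 2.03, 1.8, 0.609 and 0.922 CPM in AGES. In neonatal cells, Pcdh8 was counted at 52.9, 46.6, 55 and 35.3 CPM directly after isolation and at 6.8, 7.65, 11.4 and 7.98 CPM after culture. Adult cells gave Pcdh8 values of 0.816, 1.98, 1.78 and 1.41 CPM directly after isolation and 3.38, 4.93, 5.34 and 5.0 CPM after culture. The neoAC direct libraries were above all others. Directly isolated neonatal cells exceeded adult ones by a log2 fold change of 4.97 (SE 0.28, edgeR adjusted p = 5.65e-14). Its log2 fold change with culture was -2.48 (SE 0.24, edgeR adjusted p = 1.79e-09) in neonatal and 1.63 (SE 0.27, edgeR adjusted p = 8.17e-06) in adult cells.

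Pcdh18 formed 2 levels. Pcdh18 gave 28.4, 29.4, 30.1 and 25.9 CPM in NSCs and 6.94, 9.63, 5.64 and 3.65 CPM in AGES. In neonatal cells, Pcdh18 was counted at 26.8, 28.5, 22.4 and 26.9 CPM directly after isolation and at 8.58, 7.0, 7.26 and 8.09 CPM after culture. Adult cells gave Pcdh18 values of 8.13, 7.2, 6.21 and 7.48 CPM directly after isolation and 41.3, 37.4, 32.6 and 38.2 CPM after culture. NSCs, neoAC direct and AdAC CellC were above 20 CPM and the other groups below 10. Adult culture raised Pcdh18 by 2.37 (SE 0.17, edgeR adjusted p = 3.26e-12), neonatal culture lowered it (log2 fold change -1.76, SE 0.17, edgeR adjusted p = 1.35e-09), and AGES were below NSCs (log2 fold change -2.13, SE 0.17, edgeR adjusted p = 3.37e-11). Pcdh19, a gene of an X-linked epilepsy, had the same opposite culture changes, from 9.06 ± 1.03 to 50.8 ± 8.08 CPM in adult and from 39.7 ± 2.78 to 10.2 ± 1.86 CPM in neonatal cells, with an interaction of 4.45 (SE 0.23, edgeR adjusted p = 1.69e-14). Its AGES value was 14.3 ± 4.06 CPM, and its call against NSCs, with a log2 fold change of 0.51 (SE 0.16, edgeR adjusted p = 0.00825), was lost without replicate 2 of AGES, at 0.37 with an adjusted p of 0.059.

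Pcdh17, whose upstream sequence is shown above, was low in stem cell-derived cells. Its mean was 1.21 ± 0.564 CPM in NSCs, 0.313 ± 0.211 in AGES, 207 ± 5.77 in neoAC direct, 65 ± 5.22 in neoAC CellC, 73.6 ± 2.31 in AdAC direct and 49.5 ± 2.48 in AdAC CellC. The libraries of neoAC CellC and AdAC direct overlapped, and no other groups did. AGES were below NSCs (log2 fold change -2.0, SE 0.30, edgeR adjusted p = 1.65e-06), and below neoAC CellC (log2 fold change -7.75, SE 0.22, edgeR adjusted p = 9.33e-21).

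The 2 remaining nonclustered protocadherins were Pcdh20 and Pcdh12. Pcdh20 gave 0, 0, 0 and 0 CPM in NSCs and 0, 0, 0 and 0.0329 CPM in AGES. In neonatal cells, Pcdh20 was counted at 19, 19.2, 19.8 and 28.6 CPM directly after isolation and at 1.56, 1.68, 1.75 and 1.97 CPM after culture. Adult cells gave Pcdh20 values of 7.63, 8.84, 7.55 and 9.62 CPM directly after isolation and 0.952, 0.787, 1.04 and 1.21 CPM after culture. Both directly isolated groups were above both cultured groups, with replicate 4 of neoAC direct above its 3 fellows. The log2 fold change of Pcdh20 was -3.07 (SE 0.19, edgeR adjusted p = 1.19e-12) in adult and -3.63 (SE 0.18, edgeR adjusted p = 7.99e-14) in neonatal culture, and neoAC CellC was at least 17.4-fold above the floor in AGES.

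Pcdh12, a protocadherin of endothelial cells, followed Cdh5 in the primary groups. Pcdh12 gave 0.75, 0.213, 0.70 and 0.836 CPM in NSCs and 0.39, 0.58, 1.19 and 0.395 CPM in AGES. In neonatal cells, Pcdh12 was counted at 3.71, 8.72, 1.56 and 3.23 CPM directly after isolation and at 0.0312, 0.236, 0.249 and 0.0554 CPM after culture. Adult cells gave Pcdh12 values of 0.497, 0.278, 0.149 and 0.508 CPM directly after isolation and 1.63, 1.11, 1.51 and 1.71 CPM after culture. Replicate 2 of neoAC direct was the highest library, as for Cdh5 and the endothelial marker sum, and neoAC direct overlapped with AdAC CellC alone. Neonatal culture lowered it (log2 fold change -4.85, SE 0.57, edgeR adjusted p = 5.52e-08), or -4.24 without that replicate, and adult culture raised it by 2.05 (SE 0.52, edgeR adjusted p = 0.00102). The excess of neoAC direct over AdAC direct was 3.59 (SE 0.51, edgeR adjusted p = 8.84e-07), or 2.98 without replicate 2.

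Of the untested members, Cdh9 reached 0.122 ± 0.0811 CPM at most (AdAC CellC), Cdh12 0.208 ± 0.107 (neoAC direct) and Cdh16 0.0344 ± 0.0466 (AGES). Exons of Cdh8, Pcdh7, Pcdh8, Pcdh10 and Pcdh19 overlap a gene on the opposite strand by 23, 2235, 436, 154 and 57 bases. The counting options that the study's methods list name none for strand, so those levels can include reads of the overlapping gene.

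The cytoplasmic partners of classical cadherins were counted as well. Of 12 catenins and associated proteins, 10 were higher and 2 lower in AGES than in NSCs, beside 31.7% and 34% of all genes. In adult culture 7 were higher and 5 lower, beside 38.8% and 39.2% of all genes. In neonatal culture 7 were higher and 2 lower, beside 34.4% and 31.3%. The medians were 1.08, 0.47 and 0.65, beside 0.00, 0.00 and 0.04 for all genes. Arvcf, a p120-catenin relative, rose from 33.5 ± 13.1 CPM in NSCs to 550.2 ± 81.4 in AGES, and from 69.7 ± 10.8 in neoAC direct to 818 ± 107 in neoAC CellC. Ctnnb1 (beta-catenin) rose from 292 ± 11 to 726 ± 22.7 CPM in adult culture, a log2 fold change of 1.31 (SE 0.06, edgeR adjusted p = 1.59e-15). Ctnna2, the neural alpha-catenin, was 1.25 ± 0.828 CPM in AGES against 75.2 ± 8.72 in neoAC CellC (log2 fold change -5.86, SE 0.25, edgeR adjusted p = 3.95e-16).

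The nectins, which form adherens junctions beside cadherins, had 3 of 4 higher in adult culture, beside 38.8% of all genes. Their median log2 fold changes were 1.76 in adult and -0.04 in neonatal culture, with Nectin4 at 0.324 ± 0.0321 CPM in AdAC direct and 2.36 ± 1.1 in AdAC CellC. Of the 9 Fat, Dachsous and Celsr cadherins, which act in planar polarity, 2 were higher and 7 lower in adult culture, beside 38.8% and 39.2% of all genes. In neonatal culture 3 were higher and 5 lower, beside 34.4% and 31.3%. In AGES against NSCs 6 were higher and 3 lower, beside 31.7% and 34%. The medians were -0.95, -0.50 and 0.83. Dchs2 reached 44.9 ± 4.62 CPM in AGES against 2.72 ± 0.429 in AdAC CellC (log2 fold change 4.04, SE 0.13, edgeR adjusted p = 2.7e-19). All 4 desmosomal cadherins tested rose in neonatal culture, with a median of 3.06, beside 34.4% of all genes. In adult culture 1 rose and 2 fell, with a median of -0.53, beside 38.8% and 39.2% of all genes. All 4 were lower in AGES than in neoAC CellC, beside 40.5% of all genes. Dsg2 was 53.3 ± 6.45 CPM in AdAC direct and 1.88 ± 0.443 in neoAC direct (log2 fold change -4.82, SE 0.20, edgeR adjusted p = 1.48e-16).

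Of 6 transcription factors known to repress cadherin genes, 4 were higher and 1 lower in adult culture, beside 38.8% and 39.2% of all genes. In neonatal culture 1 was higher and 4 lower, beside 34.4% and 31.3% of all genes. The medians were 3.44 and -0.77. Twist1 rose from 0.445 ± 0.137 to 17.1 ± 2.53 CPM in adult culture (log2 fold change 5.27, SE 0.22, edgeR adjusted p = 7.74e-17), and Zeb1 fell from 456 ± 40.8 CPM in NSCs to 151 ± 12.4 in AGES (log2 fold change -1.59, SE 0.08, edgeR adjusted p = 1.61e-15). Of 8 genes for proteases that cut cadherins or for their subunits, 6 were higher and 2 lower in adult culture, beside the same shares of all genes. In neonatal culture 4 were higher and 3 lower, again beside the shares given above. The medians were 1.01 and 0.10. Mmp9 rose from 0.204 ± 0.106 to 28.2 ± 15.6 CPM in adult culture (log2 fold change 7.06, SE 0.48, edgeR adjusted p = 1.79e-12). Adam10, which sheds N-cadherin, was 427 ± 43.9 CPM in AGES and 151 ± 13.7 in neoAC CellC (log2 fold change 1.5, SE 0.09, edgeR adjusted p = 1.29e-13).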

How the data were processed

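The deposited table holds whole-number read counts per gene for all 24 libraries, 4 in each of 6 groups taken from the sample titles. The authors sequenced stranded polyadenylated RNA libraries, aligned reads to GRCm38 with STAR 2.7.3a (version per the submitters' processing notes) and counted them on Gencode exons with featureCounts, without normalization. The counting options that the study's methods list are those for exon and gene identifier, and none for strand or pairs is named.

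Of 49671 genes 49326 (99.3%) were found by identifier in the Gencode annotation at hand, which gave symbols, exon lengths and positions for all 34 members. Genes were filtered with filterByExpr (19691 kept), TMM-scaled and fitted in 1 robust quasi-likelihood model of the 6 groups in edgeR 4.0.16 (R 4.3.3, limma 3.58.1), and contrasts were tested two-sided with Benjamini-Hochberg adjustment at 0.05. The SE of a log2 fold change was taken as its absolute value over the root of the F statistic. Where all libraries of a group had at most 3 counts, a fold is given as a lower bound against that floor, which covers counting error only. Members with their value in every library were the 3 highest per kb in any group, or among the 3 largest changes either way in any comparison (adjusted p under 0.05, at least 1 CPM in the higher group, no overlap of libraries, the last not asked of the interaction). Partner genes were chosen by the same criteria. Members, gene lists and markers were chosen with earlier results of these data known, so no list is independent evidence. Promoter windows came from a RefSeq table, and the model was tested on simulated data. Alternatives were other size factors, other filters, the DESeq2 1.42.0 Wald test, fits of the compared groups alone with and without a replicate block, the longest transcript as length, and leaving out each library. Replicates are separate isolations or cultures.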

Additional observations from a re-analysis of the deposited data

Results flagged for a closer look

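In 13 of the 135 combinations of a member and a group, 1 library lay further from the other 3 than Dixon's limit allows, and chance gives such a gap in about 1 in 20 groups. In AdAC CellC the library in question was the highest for Cdh1 (56.8 CPM), Cdh6 (17.1) and Cdh13 (39.9). In AGES it was the lowest for Cdh4 (138 CPM) and the highest for Cdh13 (132) and Pcdh7 (76.4). In neoAC CellC it was the highest for Cdh8 (1.88 CPM) and the lowest for Cdh24 (10.8). In neoAC direct it was the lowest for Cdh13 (83.6 CPM) and the highest for Pcdh10 (580.2) and Pcdh20 (28.6). In AdAC direct it was the lowest for Cdh5 (6.26 CPM) and Cdh11 (63.7).

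The culture effect differed between the ages by the interaction test in 26 members, values being the log2 change in adult minus that in neonatal cells. Among cadherins it was 7.89 for Cdh1, 0.93 for Cdh2, 3.13 for Cdh3, 2.13 for Cdh4, 4.51 for Cdh5, 2.08 for Cdh6, 4.44 for Cdh13, 3.86 for Cdh17, 2.32 for Cdh18 and 1.00 for Cdh24. It was negative for Cdh7 (-3.20), Cdh10 (-0.59), Cdh15 (-1.91), Cdh19 (-3.20), Cdh20 (-0.88), Cdh22 (-0.92), Cdh23 (-2.87) and Cdh26 (-4.45). Among protocadherins it was 1.66 for Pcdh7, 4.11 for Pcdh8, 0.65 for Pcdh9, 6.90 for Pcdh12, 1.10 for Pcdh17, 4.13 for Pcdh18 and 4.45 for Pcdh19, and it was negative for Pcdh15 (-3.59). Cdh2, Cdh10, Cdh20, Pcdh9 and Pcdh17 changed in the same direction at both ages, so there the difference is in size. Without replicate 2 of neoAC direct the value of Pcdh12 was 6.29, and without replicate 3 of AdAC direct that of Cdh17 was 4.58. The call was lost for Cdh10 without replicate 1 of neoAC CellC, replicate 1 of AdAC CellC or replicate 4 of AdAC direct, with values of -0.55 to -0.52 and edgeR adjusted p of 0.0501 to 0.0547. For Cdh22 it was lost without replicate 1 or 4 of neoAC CellC, 1 or 4 of neoAC direct, 1 or 3 of AdAC CellC, or 2 or 3 of AdAC direct, with values of -0.91 to -0.80 and edgeR adjusted p of 0.0552 to 0.0836.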

How the results depend on the processing

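Of 201 calls on members across the comparisons, 188 passed in each alternative that gave a value for them (100 had a value in all, of which 93 passed throughout), and 13 were lost in at least 1, among them Cdh1 between the directly isolated groups without replicate 4 of neoAC direct (1.01, adjusted p = 0.0562) and Cdh8 between the cultured groups without replicate 3 of AdAC CellC (0.61, adjusted p = 0.0507). With a filter that asks for 10 or more counts in each library, which tests 15 members by construction, higher and lower members numbered 9 and 4 in adult culture, 3 and 11 in neonatal culture, 6 and 6 in neoAC CellC against AdAC CellC, 10 and 3 in neoAC direct against AdAC direct, and 10 and 3 in the interaction, while AGES had 9 lower than AdAC CellC and 9 lower than neoAC CellC. Of the 11977 genes that passed this filter, 5120 were higher and 4696 lower in adult culture and 4694 and 3860 in neonatal culture. They numbered 3972 and 4096 between the cultured groups, 4922 and 4259 between the directly isolated groups, and 4525 and 4198 in the interaction. AGES had 5082 lower than AdAC CellC and 4631 lower than neoAC CellC. By longest transcript the type I share moved to 78.6% in AGES, 72.4% in neoAC CellC, 74.9% in AdAC CellC and 28.8% in AdAC direct. The difference of Cdh2 between AGES and neoAC CellC turned from 0.03 to -0.28 with library size only and to -0.18 with the count filter. The cause was not tested. Library size only also moved the share of higher among all called genes from 52.3% to 65.9% in neonatal culture, with members at 9 higher and 19 lower, and from 45.7% to 31.4% in AGES against neoAC CellC, with members at 5 and 24.

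With a library left out, members higher and lower ranged from 15 to 15 and 12 to 12 in adult culture, 6 to 7 and 19 to 19 in neonatal culture, 8 to 10 and 7 to 8 in AGES against NSCs, 5 to 6 and 22 to 24 in AGES against AdAC CellC, 5 to 7 and 19 to 21 in AGES against neoAC CellC, 11 to 13 and 12 to 12 between the cultured groups, 17 to 19 and 8 to 9 between the directly isolated groups, and 17 to 19 and 7 to 9 in the interaction. The labels do not say whether replicate numbers pair the samples. Same-numbered libraries deviated together with correlations of -0.0953 to 0.106, which do not settle it. With the replicate block in fits of the compared groups, 15 members were higher and 13 lower in adult culture and 7 and 19 in neonatal culture. These are the same counts as in those fits without the block. Of 230 member values, 4 calls were lost and 1 gained on adding the block to those fits. Levels under about 1 CPM rest on few counts, which limits Cdh15, Cdh17, Cdh18 and Pcdh12.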

Other observations

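The other marker lists, and the oligodendrocyte precursor list in all groups, gave the following summed levels. Microglia markers (7 genes) ranged over 12.9 to 67.6 CPM in neoAC direct, 18.1 to 27.5 in AdAC direct, 23.6 to 39.99 in AdAC CellC and 5.02 to 9.06 in neoAC CellC. Mural cell markers (5 genes) lay at 274 to 603 CPM in neoAC direct, 387 to 414 in AdAC direct, 116 to 160.0 in AdAC CellC and 48 to 60.8 in neoAC CellC. Choroid plexus markers (4 genes) lay at 581 to 1231 CPM in neoAC direct, 448 to 1357 in neoAC CellC, 261 to 434 in AdAC CellC and 102 to 301 in AdAC direct. Oligodendrocyte precursor markers (7 genes) were highest in NSCs, at 1803 to 2159 CPM, followed by 1078 to 1300.0 in AdAC direct, 793 to 1137 in neoAC direct, 412 to 985 in neoAC CellC, 358 to 596 in AdAC CellC and 265 to 364 in AGES.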
